A study of Mus musculus with 18 samples.

Results

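The contractile apparatus of smooth muscle is described here through 9 genes in embryonic mouse mammary epithelium: Actg2, Acta2, Tagln, Cnn1, Tpm2, Myh11, Myl9, Mylk and Oxtr. They were picked by name, with earlier results of these data known, from the 24376 genes of a table of estimated counts. The low-count filter kept all 9 among 17269 genes tested. The tissue was the epithelium of mammary buds 1 to 3, freed with enzymes and dissected by hand, and each of the 18 libraries pooled 2 to 3 embryos of 1 litter and 1 genotype. Stabilized embryos were Krt14Cre/wt; Ctnn1bflox3/wt, in which Cre under the Krt14 promoter removes exon 3 from 1 allele of the β-catenin gene, so that this allele encodes a protein that escapes degradation while the other remains wild type. Controls were littermates, Krt14wt/wt; Ctnn1bflox3/wt, with the same unrecombined allele and no Cre, so effects of Cre itself and of stabilized β-catenin cannot be told apart. All embryos were of a mixed C57Bl/6 and NMRI strain. There were 5 stabilized and 5 control libraries at E16.5 (embryonic day), from females, and 4 stabilized and 4 control libraries at E13.5, from both sexes, so stage and sex makeup cannot be told apart.

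In contractile cells, a rise in calcium activates the kinase encoded by Mylk, which phosphorylates the regulatory light chain of myosin (Myl9), and myosin (heavy chain Myh11) then pulls on filaments of smooth muscle actin (Acta2 and Actg2). Tropomyosin (Tpm2), calponin (Cnn1) and transgelin (Tagln) lie along or bind those filaments. In the postnatal mammary gland the basal, myoepithelial cells carry this apparatus together with the oxytocin receptor (Oxtr), and they squeeze milk out of the alveoli when oxytocin arrives. Many of these genes are known targets of serum response factor (Srf) and its cofactors, which act at a sequence called the CArG box.

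Both smooth muscle actins were measured, and they behaved differently in these libraries, so the start of each coding sequence is shown to show where reads can separate them. Capitals mark bases that differ between the aligned sequences, including 3 bases that Acta2 has in addition (GENCODE M21 transcripts of GRCm38; Actg2 on chromosome 6, Acta2 on chromosome 19).
Actg2: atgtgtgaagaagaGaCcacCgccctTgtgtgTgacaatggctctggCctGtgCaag
Acta2: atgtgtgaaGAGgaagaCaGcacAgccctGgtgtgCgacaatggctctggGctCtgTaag
Over the whole coding sequence 955 of 1134 aligned positions were identical, or 84.2%. Of all stretches of 31 bases in their annotated transcripts, 1.21% in Actg2 and 1.39% in Acta2 also occurred in another gene, and the other 7 genes had 0 to 0.905%.

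The RefSeq table (GRCm38.p6) held no start window for Actg2, Tagln or Myh11, so no motif was searched for in these genes. For the other 6 of the 9 genes it held windows, from 250 bases before to 50 after a gene's start. A CArG box on either strand was found in 1 of these 6, Myl9, and in 1.63% of 32851 windows of that length. The letters CTTTGAA or CTTTGAT of the TCF/LEF motif, through which β-catenin acts on DNA, were in 0 of the 6 windows and in 8.65% of all. GGAATG, the TEAD motif, was in 2 (Mylk and Acta2) and in 14.7% of all. Some windows lie within the gene as GENCODE annotates it. The Mylk window (chr16:34784700-34784999) is inside its gene. Of the Acta2 window, 267 of 300 bases are in exons, its TEAD match included. In the Oxtr and Tpm2 windows 168 and 156 bases are in exons. A missing match in these windows does not describe other start regions of these genes. The part of the Myl9 window that lies outside its exons (chr2:156775214-156775419, plus strand) is shown for that match, in capitals. The match starts at -161 from the RefSeq start, which lies downstream of the GENCODE gene start at 156775420.
Myl9: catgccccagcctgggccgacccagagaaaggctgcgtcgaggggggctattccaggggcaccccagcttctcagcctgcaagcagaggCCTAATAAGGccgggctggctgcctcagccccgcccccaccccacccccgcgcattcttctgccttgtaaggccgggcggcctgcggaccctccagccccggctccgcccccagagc

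Depth was 29304083 to 36082518 counts per library in E16.5 stabilized, 27659003 to 36922108 in E16.5 control, 26768810 to 27998587 in E13.5 stabilized and 27417578 to 29310457 in E13.5 control samples. Levels are given as CPM, edgeR's unit of counts scaled to the TMM-adjusted library total, per library in the order of replicates 1 to 4 or 5, or as mean ± SD over a group. Differences are log2 fold changes ± SE, and p-values come from edgeR's quasi-likelihood test with Benjamini-Hochberg adjustment over all 17269 genes, with a threshold of 0.05. The targeted gene Ctnnb1 had 2280 ± 564 CPM in E16.5 stabilized and 1250 ± 111 CPM in E16.5 control samples (log2 fold change 0.87 ± 0.148, edgeR adjusted p = 9.02e-05). Its E13.5 level was 3260 ± 347 CPM in stabilized and 2680 ± 333 CPM in control samples (0.28 ± 0.165, edgeR adjusted p = 0.307), and gene counts do not show the loss of the exon. The samples carried epithelial markers (Epcam, Cdh1, Krt5, Krt14, Krt8 and Esrp1) at a summed 2980 to 6200 CPM in E16.5 stabilized, 2220 to 2490 CPM in E16.5 control, 2180 to 2960 CPM in E13.5 stabilized and 2260 to 2790 CPM in E13.5 control libraries. Summed endothelial markers stayed at 3.28 to 14 CPM over the 18 libraries. 3 libraries stood apart: E16.5 stabilized replicate 1 had the most Krt17 (5250 CPM, against 2030 to 2440 CPM in its group), E16.5 control replicate 5 held 39.8 CPM of skeletal and cardiac muscle markers against 3.14 to 5.81 CPM in the other controls, and E13.5 control replicate 3 held 679 CPM of mesenchymal markers against 89.8 to 287 CPM. Calls that change without them are given with the gene concerned.

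The 9 genes did not move as 1 block. Mylk and Oxtr were higher in stabilized epithelium at both stages, Tagln was higher at E13.5, and Actg2, the 1 gene that fell, was almost missing from stabilized epithelium at E16.5. At E16.5, 2 of 9 genes rose and 1 fell in stabilized samples, while 22.2% of all tested genes rose and 19.4% fell, 41.7% in all. That count is no larger than the share of all genes. At E13.5, 3 of 9 rose and 0 fell, where 9.58% of all genes rose, 5.29% fell and 14.9% changed in all. The median log2 fold change of the 9 genes was -0.53 at E16.5, against 0.10 over all genes tested, and 2.35 at E13.5, against 0.01. Both stages use their own controls, but all 5 comparisons are drawn from the same 4 groups and share libraries.

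**Figure D1:**
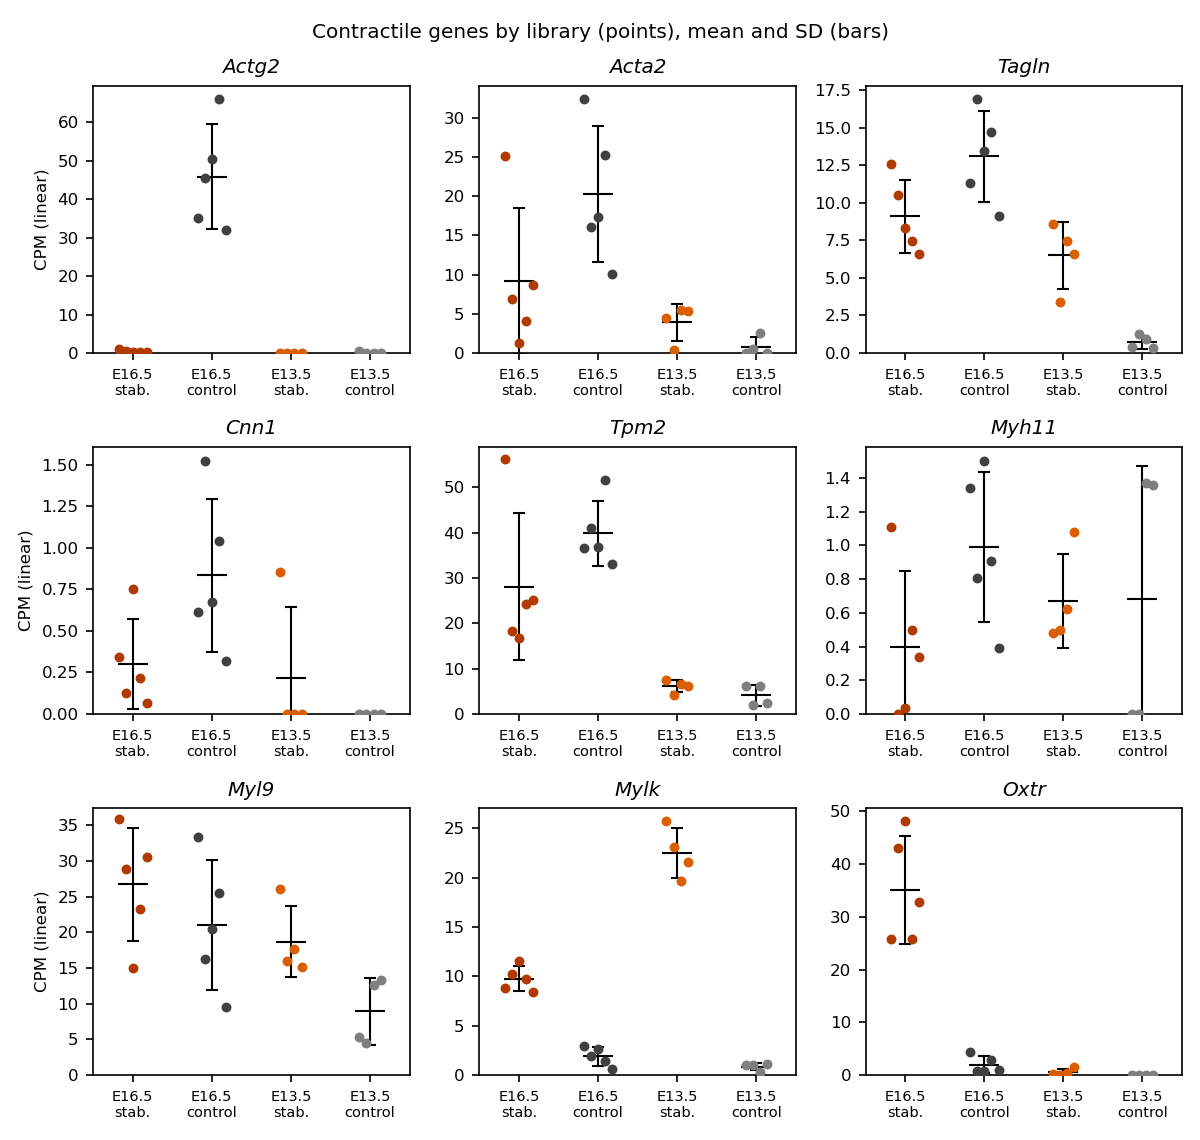
CPM (linear axes, different for each gene) of the 9 contractile genes in every library. Points are libraries, wide dashes are group means and bars SD (cut at 0), with 5 libraries per group at E16.5 and 4 at E13.5. Actg2 sits at 32 to 66.2 CPM in E16.5 controls and below 1 CPM in every other library, while Oxtr sits at 25.7 to 48.2 CPM in E16.5 stabilized libraries.

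Actg2 (ENSMUSG00000059430, GRCm38 chromosome 6, 83512905 to 83536265, minus strand) encodes the γ smooth muscle actin, known from gut and other visceral muscle. At E16.5 it had 0.995, 0.442, 0.341, 0.286 and 0.272 CPM in stabilized libraries, against 35.2, 45.6, 50.4, 66.2 and 32 CPM in control libraries. Every control library was more than an order of magnitude above every stabilized library. Summed over libraries these were 66 counts in stabilized and 6831 in control samples, and the gene fell by 6.62 ± 0.711 on the log2 scale, or 98.2-fold (edgeR adjusted p = 1.03e-06). At E13.5 it was near 0 in both genotypes, with 0, 0, 0.0346 and 0.0327 CPM in stabilized libraries and 0.503, 0, 0 and 0 CPM in control libraries. Those are 2 and 17 counts, all 17 from 1 library, and control over stabilized came to a ratio of 7.88 with a 95% counting interval of 1.87 to 70.3. The difference did not pass (log2 fold change -2.68 ± 1.38, edgeR adjusted p = 0.236), and it stood at 2.33, edgeR adjusted p = 0.359, without that library. From stage to stage Actg2 rose in control epithelium, to 45.9 ± 13.6 CPM at E16.5 against 0.126 ± 0.251 CPM at E13.5 (log2 fold change 8.42 ± 0.879, edgeR adjusted p = 6.25e-07). Without E13.5 control replicate 1, the E13.5 controls held 0 counts and the fitted value was 13.42. It also rose in stabilized epithelium, from a base of 2 counts (4.48 ± 1.16, edgeR adjusted p = 0.00766), a ratio of 27.1 with a counting interval of 7.21 to 228. Between stages the genotype effect differed by -3.94 ± 2.59 (E16.5 minus E13.5, edgeR adjusted p = 0.273, not passed), and it passed without E13.5 control replicate 1 (-8.95, edgeR adjusted p = 0.003).

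Acta2 (ENSMUSG00000035783, chromosome 19, 34241090 to 34255590, minus strand) encodes the α smooth muscle actin by which myoepithelial cells are usually recognised. At E16.5 it was lower in most stabilized libraries, without passing the test. Stabilized libraries had 25.2, 6.85, 1.23, 4.11 and 8.66 CPM, and control libraries 32.4, 16.1, 17.4, 25.3 and 10.1 CPM. Of 5 stabilized libraries 4 lay below every control. The groups overlapped through stabilized replicate 1, which alone gave 54.7% of its group's summed CPM, and the difference did not pass (log2 fold change -1.14 ± 0.971, 95% interval -3.22 to 0.94, edgeR adjusted p = 0.379). Without that library the value was -1.96 (edgeR adjusted p = 0.154). E13.5 values were 4.45, 0.398, 5.47 and 5.33 CPM in stabilized libraries and 0, 0.506, 2.58 and 0 CPM in control libraries. Here 3 of 4 stabilized libraries lay above every control, without passing (2.35 ± 1.17, edgeR adjusted p = 0.222). Without E13.5 control replicate 3, the library with the most mesenchymal markers, it passed (4.48, edgeR adjusted p = 0.0279). In control epithelium Acta2 rose to 20.3 ± 8.68 CPM at E16.5 against 0.77 ± 1.23 CPM at E13.5 (4.72 ± 1.26, edgeR adjusted p = 0.00581, and 6.86 without E13.5 control replicate 3). In stabilized epithelium the 9.2 ± 9.36 CPM at E16.5 overlapped the 3.91 ± 2.39 CPM at E13.5 (1.23 ± 1.06, edgeR adjusted p = 0.439). The change of the genotype effect between stages was -3.49 ± 1.52 (edgeR adjusted p = 0.0936), which passed without E13.5 control replicate 3 (-5.63, edgeR adjusted p = 0.0103) and without E16.5 stabilized replicate 1 (-4.28, edgeR adjusted p = 0.0453).

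Tagln (ENSMUSG00000032085, chromosome 9, 45929619 to 45936058, minus strand) encodes transgelin, an actin-binding protein that appears early in smooth muscle differentiation. It was already high in stabilized buds at E13.5. Those libraries had 8.62, 3.42, 7.45 and 6.61 CPM, against 0.385, 1.25, 0.903 and 0.324 CPM in control libraries. The groups did not overlap, and the rise was 3.18 ± 0.417 on the log2 scale, or 9.07-fold (edgeR adjusted p = 1.88e-05). At E16.5 stabilized libraries had 12.6, 10.5, 8.34, 7.43 and 6.59 CPM and control libraries 11.4, 16.9, 13.46, 14.7 and 9.1 CPM, which overlapped (-0.53 ± 0.336, 95% interval -1.25 to 0.19, edgeR adjusted p = 0.225). Tagln thus had a different genotype effect at the later stage, and the difference itself passed (-3.71 ± 0.529, edgeR adjusted p = 2.3e-05). The stage effects show where it lay: controls rose 18.2-fold to 13.1 ± 3.02 CPM at E16.5, against 0.715 ± 0.441 CPM at E13.5 (4.19 ± 0.426, edgeR adjusted p = 1.6e-07). Stabilized samples had 9.09 ± 2.43 CPM at E16.5 and 6.52 ± 2.23 CPM at E13.5 (0.48 ± 0.359, edgeR adjusted p = 0.362). The annotated spans of Pcsk7 and Gm48529, introns included, overlap Tagln on the opposite strand. No source used here gives a strand setting, and overlap of exons was not checked. Whether reads from these genes entered the Tagln counts was therefore not tested.

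Tpm2 (ENSMUSG00000028464, chromosome 4, 43514711 to 43523765, minus strand), which encodes β-tropomyosin, followed the stage more than the genotype. At E16.5 it had 56.1, 18.3, 16.8, 24.3 and 25.2 CPM in stabilized libraries and 36.5, 41.1, 36.8, 51.6 and 32.9 CPM in control libraries. Stabilized replicate 1 was above all controls and the other 4 were below all of them. With all libraries the difference did not pass (log2 fold change -0.50 ± 0.337, edgeR adjusted p = 0.254), and without stabilized replicate 1 it did (-0.91, edgeR adjusted p = 0.019). At E13.5 it had 7.59, 4.25, 6.55 and 6.22 CPM in stabilized and 6.09, 1.93, 6.19 and 2.43 CPM in control libraries, which overlapped (0.56 ± 0.388, edgeR adjusted p = 0.406). Tpm2 rose with stage in stabilized epithelium, to 28.1 ± 16.1 CPM at E16.5 against 6.15 ± 1.4 CPM at E13.5 (2.19 ± 0.385, edgeR adjusted p = 0.00031). It also rose in controls, to 39.8 ± 7.2 CPM at E16.5 against 4.16 ± 2.3 CPM at E13.5 (3.26 ± 0.405, edgeR adjusted p = 2.93e-06). The difference of the genotype effects was -1.06 ± 0.514 (edgeR adjusted p = 0.126), and -1.46 (edgeR adjusted p = 0.014) without E16.5 stabilized replicate 1.

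Cnn1 (ENSMUSG00000001349, chromosome 9, 22099216 to 22109630, plus strand), the gene of calponin 1, a marker of late smooth muscle differentiation, was near the limit of detection. At E16.5 stabilized libraries had 0.344, 0.126, 0.749, 0.214 and 0.0679 CPM and control libraries 0.613, 1.52, 0.677, 1.04 and 0.321 CPM (-1.46 ± 1.34, edgeR adjusted p = 0.415). At E13.5 there were 25 counts in stabilized samples, all of them in replicate 1 (0.855 CPM), and 0 in controls, at least 8.99-fold higher against a floor of 3 counts over the group, which did not pass (edgeR adjusted p = 0.062). It passed by DESeq2 (adjusted p = 0.0374) and by edgeR without stabilized replicate 2 (adjusted p = 0.0416) or 4 (adjusted p = 0.0494), with its counts still from replicate 1. In control epithelium it rose to 126 counts at E16.5, against 0 counts at E13.5, at least 36-fold (edgeR adjusted p = 0.00594). The difference of the genotype effects passed, with a lower effect at E16.5 (edgeR adjusted p = 0.0267). Its fitted size is set by the fit, since the E13.5 controls were at 0, and is not read as a measurement. The call rested on 1 library and was lost without E13.5 stabilized replicate 1 (edgeR adjusted p = 1), and also with the 3 libraries that stood apart left out (edgeR adjusted p = 0.0537). Without E13.5 stabilized replicate 1, which leaves that group at 0 as well, the stage difference in stabilized epithelium passed (edgeR adjusted p = 0.0193).

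The myosin motor itself was hardly present. Myh11 (ENSMUSG00000018830, chromosome 16, 14194535 to 14291372, minus strand), the smooth muscle myosin heavy chain, had 1.11, 0, 0.0341, 0.5 and 0.339 CPM in E16.5 stabilized libraries and 1.34, 0.808, 1.5, 0.905 and 0.393 CPM in E16.5 control libraries. Its E13.5 values were 0.479, 0.498, 0.624 and 1.08 CPM in stabilized and 0, 0, 1.37 and 1.36 CPM in control libraries. The highest library was an E16.5 control at 1.5 CPM, the groups overlapped at each stage, and none of its 5 comparisons passed. The genotype effect was -1.32 ± 1.26 at E16.5 (edgeR adjusted p = 0.436) and -0.02 ± 1.39 at E13.5 (edgeR adjusted p = 1), with 95% intervals of -4.03 to 1.40 and -3 to 2.95 that would hold sizeable changes of either sign.

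Myl9 (ENSMUSG00000067818, chromosome 2, 156775420 to 156781658, plus strand), the regulatory light chain, was present in all 18 libraries. At E16.5 it had 35.8, 28.8, 15, 23.3 and 30.6 CPM in stabilized libraries and 33.4, 16.3, 20.5, 25.5 and 9.5 CPM in control libraries, with overlap (0.34 ± 0.342, edgeR adjusted p = 0.453). At E13.5 it had 26.1, 16, 17.6 and 15.2 CPM in stabilized libraries and 5.27, 4.46, 12.6 and 13.4 CPM in control libraries. All stabilized libraries lay above all controls there, yet the log2 fold change of 1.07 ± 0.389 did not pass (edgeR adjusted p = 0.0743). It passed in DESeq2 (adjusted p = 0.0408) and without E13.5 control replicate 3 (edgeR adjusted p = 0.0488) or 4 (0.0446) or E16.5 control replicate 5 (0.0484). In control epithelium Myl9 rose to 21 ± 9.06 CPM at E16.5 against 8.92 ± 4.7 CPM at E13.5 (1.24 ± 0.375, edgeR adjusted p = 0.0112), and in stabilized epithelium 26.7 ± 7.91 CPM at E16.5 and 18.7 ± 5.02 CPM at E13.5 did not pass (0.51 ± 0.366, edgeR adjusted p = 0.336). The difference of its genotype effects was -0.73 ± 0.515 (edgeR adjusted p = 0.31).

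Mylk (ENSMUSG00000022836, chromosome 16, 34745210 to 35002420, plus strand), the myosin light chain kinase, had the firmest genotype effect of the 9 genes at E13.5. Stabilized libraries had 25.8, 23.1, 19.7 and 21.6 CPM, against 1.01, 1.01, 0.268 and 1.16 CPM in control libraries. The lowest stabilized library was far above the highest control, a rise of 4.70 ± 0.458 on the log2 scale, or 26-fold (edgeR adjusted p = 5.11e-07). With the gene-by-library factors of the deposited normalized table as offsets, which for Mylk ran from 0.0962 to 1.97, the rise was 3.72 (edgeR adjusted p = 0.000105). At E16.5 stabilized libraries had 8.84, 10.3, 11.6, 9.71 and 8.42 CPM and control libraries 2.98, 1.91, 2.59, 1.37 and 0.607 CPM, again without overlap (2.36 ± 0.369, or 5.15-fold, edgeR adjusted p = 3.36e-05). The effect was smaller at the later stage, and that difference passed (-2.33 ± 0.54, edgeR adjusted p = 0.00239). Mylk was the 1 member that fell with stage in stabilized epithelium, to 9.76 ± 1.25 CPM at E16.5 against 22.5 ± 2.57 CPM at E13.5 (-1.21 ± 0.367, edgeR adjusted p = 0.0182), a call lost without E13.5 stabilized replicate 1 (-1.13, edgeR adjusted p = 0.051). In controls it rose to 1.89 ± 0.947 CPM at E16.5 against 0.862 ± 0.403 CPM at E13.5 (1.13 ± 0.395, edgeR adjusted p = 0.0245). This rise is weakly held: it was lost without E13.5 control replicate 3 (0.84, edgeR adjusted p = 0.0612), without E16.5 control replicate 1 (0.90, edgeR adjusted p = 0.0748) or 3 (0.98, edgeR adjusted p = 0.0606), in a model of the compared libraries alone (1.11, edgeR adjusted p = 0.209) and with the offsets of the normalized table (0.53, edgeR adjusted p = 0.404). The genes 1700119H24Rik, E130310I04Rik and Gm21691 overlap Mylk on the opposite strand, with the same limit as for Tagln.

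Oxtr (ENSMUSG00000049112, chromosome 6, 112473683 to 112489943, minus strand), the receptor through which oxytocin makes myoepithelium and uterine muscle contract, went against Actg2 at E16.5. Stabilized libraries had 25.8, 43.1, 48.2, 25.7 and 32.9 CPM, and control libraries 4.32, 0.743, 0.752, 2.91 and 1 CPM. The groups were far apart, and the gene rose by 4.17 ± 0.737 on the log2 scale, or 17.9-fold (edgeR adjusted p = 0.000212). At E13.5 it had 0.137, 0, 0.416 and 1.54 CPM in stabilized libraries and 0.0296, 0, 0 and 0 CPM in control libraries. That rise also passed (5.47 ± 1.42, edgeR adjusted p = 0.014), but from 63 counts against 1, a ratio of 68 with a 95% counting interval of 11.8 to 2730, and stabilized replicate 4 held 73.6% of its group's summed CPM. Without that library it did not pass (3.97, edgeR adjusted p = 0.0714), and without E13.5 control replicate 1, which leaves the controls at 0 counts, the fitted value was 6.98. With the 3 libraries that stood apart left out together it did not pass either (edgeR adjusted p = 0.0532). Oxtr rose with stage in both genotypes. In stabilized epithelium it had 35.1 ± 10.2 CPM at E16.5 and 0.523 ± 0.698 CPM at E13.5 (6.05 ± 0.906, edgeR adjusted p = 9.48e-05, and 7.56 without E13.5 stabilized replicate 4). In controls, 306 counts at E16.5 stood against 1 at E13.5, a ratio of 262 with a counting interval of 46.7 to 10400 (edgeR adjusted p = 0.000183). The genotype effects of the stages differed by -1.30 ± 1.57, which did not pass (edgeR adjusted p = 0.579).

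**Figure D2:**
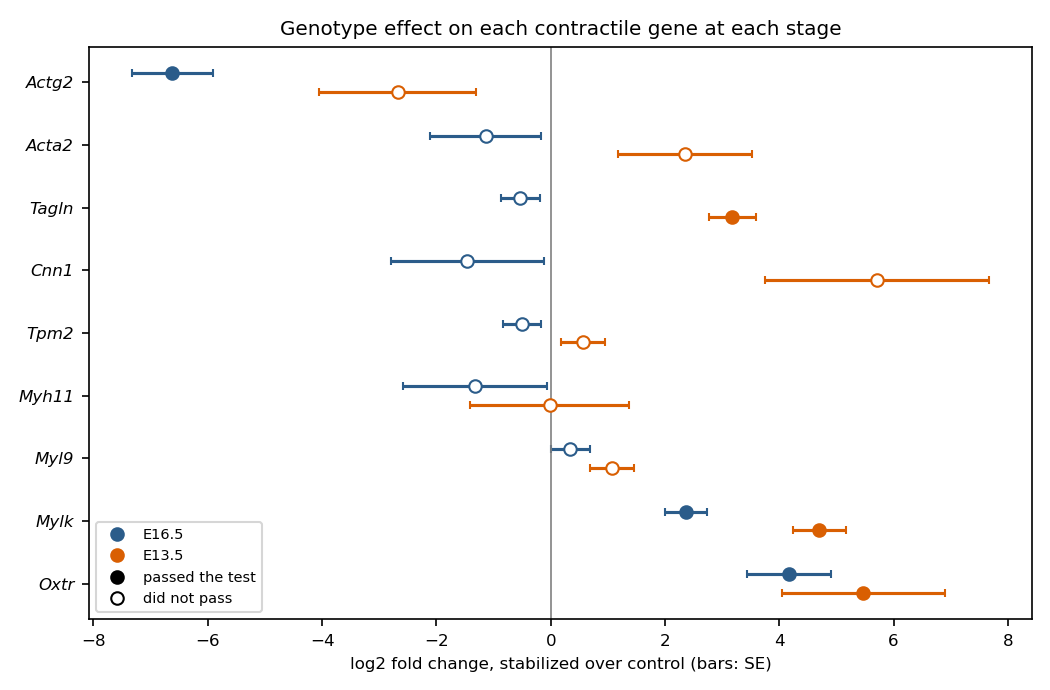
Log2 fold change of stabilized over control for each of the 9 genes, at E16.5 (blue, upper) and at E13.5 (orange, lower), with bars for SE (Cnn1 at E13.5 has controls at 0 counts, so its position is set by the fit). Filled points passed the edgeR test at 0.05 and open points did not. Mylk and Oxtr lie right of 0 with filled points at both stages, Tagln does so at E13.5, and Actg2 at E16.5 is the filled point on the left, at -6.62.

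Between stages, most of the 9 genes rose in control epithelium. They were chosen with earlier results of these data known, so the shares of all genes stand beside them as a description only. Of the 9 genes, 8 were higher at E16.5 than at E13.5 in controls and 0 were lower, where 24.9% of all tested genes rose, 22.6% fell and 47.5% changed, with a median log2 fold change of 4.19 against -0.03 over all genes. Myh11 was the gene that did not pass (0.54 ± 1.33, edgeR adjusted p = 0.772). Cnn1 rose from 0 counts in the E13.5 controls, Oxtr from 1 and Actg2 from 17, and the rise of Mylk was weakly held. In stabilized epithelium 3 rose (Actg2, Oxtr and Tpm2) and 1 fell (Mylk), where 28% of all genes changed and 11.5% fell, with a median of 0.51 against 0. The genotype effect was lower at E16.5 than at E13.5 for 3 genes (Tagln, Mylk and Cnn1) and higher for 0, where the difference was called in 32.2% of genes, upward in 15.6% and downward in 16.6%. The total of 3 of 9 is near the share of all genes called, with all 3 of them downward, and the median of the 9 differences was -2.33 against 0.09.

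Scaled by length (RPKM, CPM per kilobase of the exons of the coding transcripts in GENCODE M21), the levels of the genes can be compared roughly. The same length was used for a gene in all libraries, though coding transcripts of Mylk run from 1620 to 7824 bases. The deposited gene-by-library factors ran from 0.0962 to 1.97 for Mylk, 0.13 to 1.68 for Tpm2 and 0.394 to 1.22 for Acta2. How far ranks and shares depend on the transcripts used was not tested. Actg2 had 0.3 ± 0.194 RPKM and a mean of 0.528% of the summed RPKM of the 9 genes in E16.5 stabilized samples, against 29.5 ± 8.72 RPKM and 35.8% in E16.5 controls. Its mean was the highest in E16.5 controls, but its SD range overlapped that of Myl9, which was above it in replicate 1 (29.6 RPKM against 22.6 RPKM). In E16.5 controls Myl9 (18.6 ± 8.03 RPKM) and Tpm2 (16.3 ± 2.94 RPKM) came next, within each other's SD, then Acta2 (9.23 ± 3.95 RPKM) and Tagln (8.07 ± 1.86 RPKM), also within each other's SD, and the other 4 genes were below 1 RPKM. In E16.5 stabilized samples Myl9 had the highest mean (23.7 ± 7.02 RPKM), followed by Tpm2 (11.5 ± 6.57 RPKM), whose SD range overlaps those of Myl9 and Oxtr (7.34 ± 2.13 RPKM), then Tagln (5.6 ± 1.5 RPKM), Acta2 (4.19 ± 4.26 RPKM) and Mylk (1.21 ± 0.154 RPKM). Oxtr was at 0.406 ± 0.336 RPKM in the E16.5 controls. At E13.5 Myl9 led in both genotypes, with 16.6 ± 4.45 RPKM in stabilized and 7.9 ± 4.17 RPKM in control samples. Behind it stood Tagln (4.02 ± 1.37 RPKM), Mylk (2.78 ± 0.318 RPKM) and Tpm2 (2.51 ± 0.571 RPKM) in stabilized buds, and Tpm2 (1.7 ± 0.938 RPKM) in control buds. Summed over the 9 genes, libraries had 37.9 to 81.3 RPKM in E16.5 stabilized, 53.1 to 108 RPKM in E16.5 control, 21.1 to 37.2 RPKM in E13.5 stabilized and 5.87 to 15.6 RPKM in E13.5 control samples, so the sums overlapped at E16.5 and did not at E13.5. In bulk tissue, a lower level may mean fewer cells of a type or less RNA per cell, and these cannot be told apart.

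**Figure D3:**
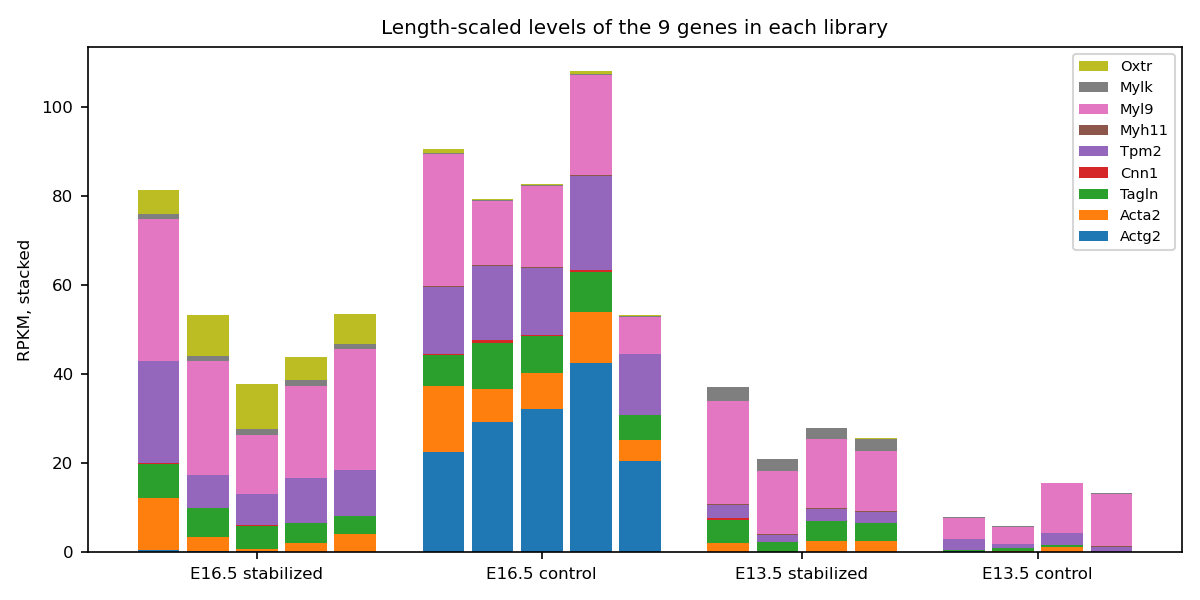
RPKM (linear axis) of the 9 genes, stacked, with 1 bar per library and libraries grouped by stage and genotype. Actg2 (blue, bottom) fills a mean of 0.528% of the bar in E16.5 stabilized libraries, where Oxtr (olive, top) takes a mean of 15%, and 35.8% in E16.5 controls.

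Other structural genes of smooth muscle (20 genes listed, 19 tested) also split. At E16.5, 2 rose and 5 fell in stabilized samples (median log2 fold change -0.16), and at E13.5, 8 rose and 0 fell (median 0.78). Counts of this and the following lists stand beside the shares over all tested genes. These were 22.2% higher and 19.4% lower at E16.5, and 9.58% higher and 5.29% lower at E13.5. Synpo2, which encodes an actin-bundling protein of muscle Z-discs, had 162 ± 17.3 CPM in E16.5 stabilized and 1.51 ± 0.2 CPM in E16.5 control samples (6.74 ± 0.294, edgeR adjusted p = 3.38e-12), and 114 ± 24.9 CPM in E13.5 stabilized against 7.09 ± 3.05 CPM in E13.5 control samples (4.01 ± 0.284, edgeR adjusted p = 1.57e-08). It is, like Mylk and Oxtr, higher at both stages. Itga8, an integrin chain of smooth muscle and mesenchyme, fell at E16.5 (-1.48) and rose at E13.5 (0.81). Tpm1, the α-tropomyosin gene, rose at E13.5 to 264 ± 67.4 CPM in stabilized against 92.8 ± 28.4 CPM in control samples (1.51 ± 0.215, edgeR adjusted p = 4.94e-05) and had -0.08 ± 0.188 at E16.5 (edgeR adjusted p = 0.754), with a difference that passed (-1.59, edgeR adjusted p = 0.00024). Csrp1, a muscle LIM protein gene, had the same sequence of values, 1.92 ± 0.284 at E13.5 (edgeR adjusted p = 0.000101) and -0.06 ± 0.243 at E16.5 (edgeR adjusted p = 0.861), with a difference of -1.98 (edgeR adjusted p = 0.000461). Des, the desmin gene, and Pdlim3 had 0 counts in E13.5 controls.

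The non-muscle counterparts, which all cells use, were measured as 10 genes. At E16.5, 2 rose and 6 fell in stabilized samples, and at E13.5, 3 rose and 0 fell. Among all tested genes 22.2% rose and 19.4% fell at E16.5, and 9.58% rose and 5.29% fell at E13.5. Actg1, a cytoplasmic actin, had 1480 CPM in E16.5 stabilized and 2540 CPM in E16.5 control samples (log2 fold change -0.78, edgeR adjusted p = 2.87e-05). Myh10, a non-muscle myosin heavy chain, fell at E16.5 (-0.78) and rose at E13.5 (0.40), and Myh14, another such chain, rose at both (2.45 and 2.55). Myl12a, a non-muscle regulatory light chain, rose at E13.5 (0.67). Of 11 genes that regulate light chain phosphorylation, 1 rose and 2 fell at E16.5. Ppp1r12b, a myosin phosphatase subunit gene, rose (0.79), and Calm3, a calmodulin gene, was among those that fell (-1.01). At E13.5, 0 rose and 1 fell (Calm2, a calmodulin gene, -1.02, edgeR adjusted p = 0.0382).

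Of the transcriptional regulators of these genes, 4 of 8 rose and 3 fell at E16.5, and 2 rose and 1 fell at E13.5. The shares over all genes were 22.2% and 19.4% at E16.5, and 9.58% and 5.29% at E13.5. Myocd, the gene of myocardin, the Srf cofactor that drives the smooth muscle programme, was higher in stabilized epithelium at both stages. It had 9.72, 6.47, 8.41, 5.68 and 6.99 CPM in E16.5 stabilized libraries against 0.379, 1.2, 0.827, 1.71 and 0.607 CPM in E16.5 control libraries (2.98 ± 0.662, edgeR adjusted p = 0.00115). At E13.5 it had 1.78, 0.464, 1.84 and 3.4 CPM in stabilized libraries against 0.325, 0.357, 0 and 0.324 CPM in control libraries (2.87 ± 0.755, edgeR adjusted p = 0.0127). The groups did not overlap at either stage, while Actg2 was lower in the same E16.5 stabilized libraries. Srf had 71.7 ± 12.9 CPM in E16.5 stabilized and 135 ± 18.2 CPM in E16.5 control samples (-0.91 ± 0.156, edgeR adjusted p = 9.49e-05). At E13.5 Srf had 0.52 ± 0.174 (edgeR adjusted p = 0.0508), and the difference of its effects passed (-1.43, edgeR adjusted p = 0.000102). Mrtfa, an Srf cofactor that responds to actin, fell at E16.5 (-0.63 ± 0.139, edgeR adjusted p = 0.00099) and had -0.14 ± 0.155 at E13.5 (edgeR adjusted p = 0.668), and its relative Mrtfb had 0.26 ± 0.128 at E16.5 (edgeR adjusted p = 0.119) and -0.05 ± 0.143 at E13.5 (edgeR adjusted p = 0.887). Mef2c, a muscle transcription factor gene, rose at E16.5 (1.96) and at E13.5 (2.04), the LIM cofactor gene Fhl2 fell at E16.5 (-2.01), and Tgfb1i1, another LIM cofactor gene, fell at E13.5 (-1.03) and rose at E16.5 (0.75).

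**Figure D4:**
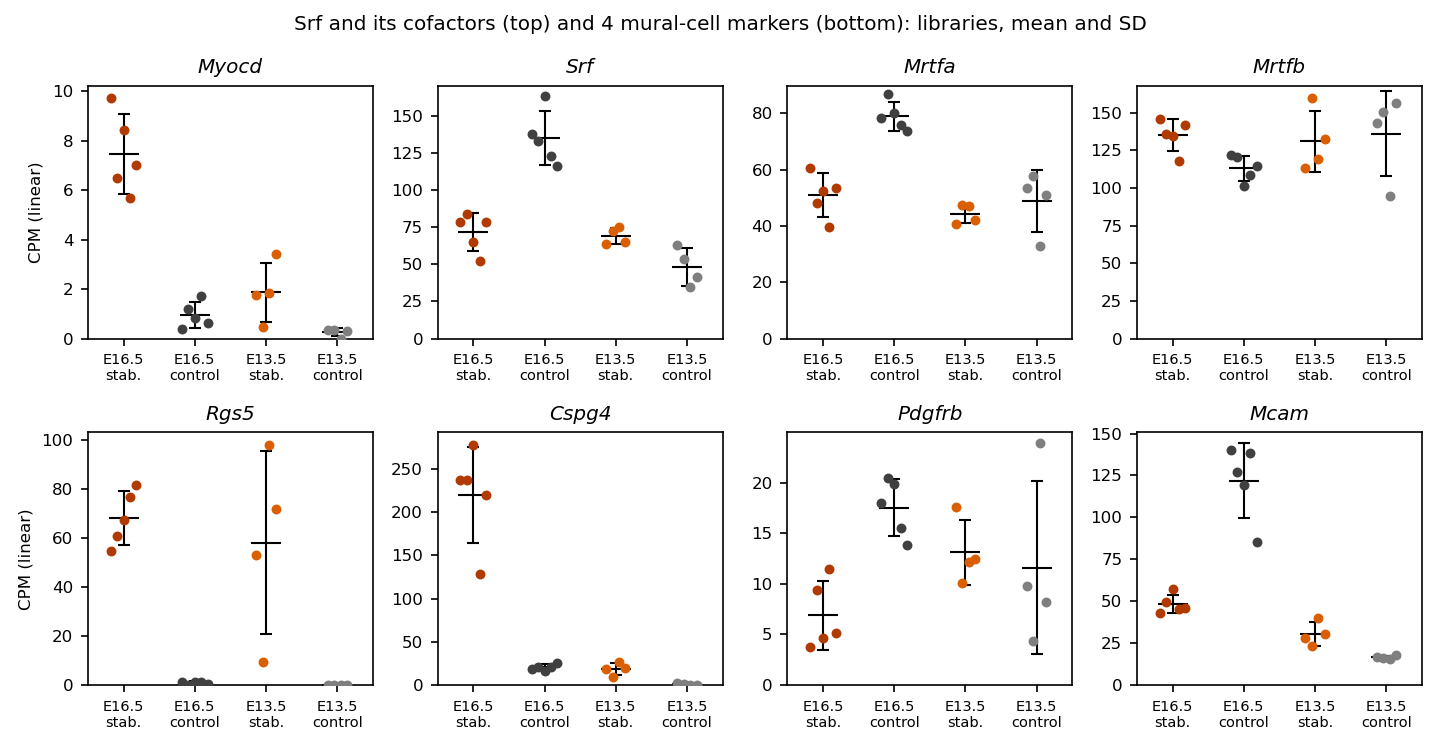
CPM (linear axes, different for each gene) by library of Srf and its cofactors (top) and of 4 markers of mural cells, the contractile cells of vessel walls (bottom). Points are libraries, wide dashes means and bars SD. Myocd and Rgs5 are higher in stabilized libraries at both stages, while Srf and Mcam are lower in stabilized libraries at E16.5.

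Besides Oxtr itself, 11 genes of oxytocin signalling were listed, among them Oxt and Avpr1a, and 9 were tested. At E16.5, 3 rose and 4 fell, and at E13.5, 0 rose and 2 fell. Of all tested genes, 41.7% changed at E16.5 and 14.9% at E13.5. The phospholipase gene Plcb1 rose at E16.5 to 16.9 CPM in stabilized against 1.29 CPM in control samples (3.70 ± 0.457, edgeR adjusted p = 2.11e-06). The genes of the calcium channels opened by inositol trisphosphate moved apart: Itpr3 rose (1.63) and Itpr1 fell (-1.70) at E16.5, and Itpr2 fell at E13.5 (-1.56). Plcb4 fell at E13.5 (-0.64). Oxt, the oxytocin gene, was below the filter, with 8 counts in E16.5 stabilized, 1 in E16.5 control, 0 in E13.5 stabilized and 34 in E13.5 control samples.

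Markers of the basal layer, which forms the myoepithelium after birth, rose in 6 of 9 cases and fell in 1 at E16.5, and rose in 4 and fell in 2 at E13.5. Over all tested genes 22.2% rose and 19.4% fell at E16.5, and 9.58% rose and 5.29% fell at E13.5. At E16.5 Trp63 (2.99), Egfr (2.68) and Krt5 (2.48) rose and Itga6, an integrin gene, fell (-0.52, edgeR adjusted p = 0.00999), with Trp63, the basal transcription factor gene, at 732 CPM in stabilized and 92.1 CPM in control samples. At E13.5 Krt17 rose (3.57), and Itga6 (-1.50) and Krt14 (-1.22) fell. Luminal markers rose in 2 and fell in 3 of 9 at E16.5 (Krt7 5.43, Kit -1.83, Krt19 2.60), and rose in 1 and fell in 4 at E13.5 (Kit -2.09, Gata3 -1.40, Krt7 2.98). The 2 of 9 luminal markers that rose at E16.5 are near the share of all genes. Foxa1 had 0 counts in E13.5 controls.

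Contractile genes are also used by mural cells, mesenchyme and striated muscle, and markers of these are given beside the results. Of 9 mural markers 8 were tested, 5 rose and 2 fell at E16.5, and 5 rose and 1 fell at E13.5. All tested genes had shares of 22.2% and 19.4% at E16.5, and 9.58% and 5.29% at E13.5. The median log2 fold change of the mural markers was 2.92 at E16.5 and 3.47 at E13.5, against 0.1 and 0.01 over all genes. The summed level of the 9 mural markers was 421 to 833 CPM in E16.5 stabilized, 314 to 352 CPM in E16.5 control, 219 to 312 CPM in E13.5 stabilized and 187 to 344 CPM in E13.5 control libraries. Notch3, named after its values were seen, was the largest part of the E13.5 sums. It averaged 122 CPM in E13.5 stabilized and 256 CPM in E13.5 control samples, against the direction of the median. Rgs5, a regulator of G-protein signalling known from pericytes, had 68.2 ± 11.1 CPM in E16.5 stabilized against 0.913 ± 0.53 CPM in E16.5 control samples (6.22 ± 0.631, edgeR adjusted p = 8.21e-07). At E13.5, 6866 counts stood against 3, a ratio of 2470 with a counting interval of 845 to 12000 (edgeR adjusted p = 1.13e-06). Mcam fell at E16.5 (-1.34). Cspg4 and Pdgfrb, shown in the plot and chosen after their values were seen, split likewise, with Cspg4 higher at E16.5 (3.42) and E13.5 (4.21) and Pdgfrb lower at E16.5 (-1.35). Ndufa4l2 had 0 counts in E13.5 controls and Higd1b in E16.5 controls. The part of mural cells in the rises of Mylk, Oxtr and Tagln was not tested.

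Mesenchymal markers (12 tested) rose in 3 and fell in 1 at E16.5 and rose in 1 at E13.5. These counts are near or below the shares of all tested genes, 22.2% higher and 19.4% lower at E16.5 and 9.58% higher at E13.5. Summed, they came to 430 to 743 CPM in E16.5 stabilized, 103 to 395 CPM in E16.5 control, 544 to 740 CPM in E13.5 stabilized and 89.8 to 679 CPM in E13.5 control libraries. Dcn, a matrix proteoglycan gene, had 301 CPM in E16.5 stabilized and 4.02 CPM in E16.5 control samples (6.22, edgeR adjusted p = 6.21e-05), and Postn, another matrix gene, rose at E13.5 (2.47). Dpt had 0 counts in E13.5 controls. Other markers moved in both directions. The list's median log2 fold change was 1.52 at E16.5 and 0.51 at E13.5, against 0.1 and 0.01 over all genes. At an unadjusted edgeR p under 0.05, 6 markers were higher and 1 lower at E16.5. Col1a2 averaged 114 CPM in E16.5 stabilized and 39 CPM in E16.5 control samples, and Lum 28.6 and 3.88 CPM. Pdgfra, a receptor gene of mesenchyme, was the 1 that fell at E16.5, to 16.9 ± 8.37 CPM in stabilized against 48.1 ± 9.64 CPM in control samples (-1.51, edgeR adjusted p = 0.0455). The collagen gene Col3a1 did not pass at E16.5 (-2.06, edgeR adjusted p = 0.127) or at E13.5 (-1.56, edgeR adjusted p = 0.447), nor did Twist1 at E13.5 (-2.07, edgeR adjusted p = 0.214). Col1a2, Lum, Pdgfra, Col3a1 and Twist1 were chosen after their values were seen. E13.5 control replicate 3, with 679 CPM of these markers, had the least Mylk of its group (0.268 CPM). It had the most Acta2 (2.58 CPM) and Myh11 (1.37 CPM) of that group, and its Tagln (0.903 CPM) lay between the other controls. Oxtr was at 0 in 3 of 4 controls, this library among them. The part of mesenchyme in the rises of Mylk, Oxtr and Tagln was not tested. Of 12 striated muscle markers 7 were tested, 0 rose at either stage and 1, Myh3, fell at E16.5 (-6.43, edgeR adjusted p = 0.009), where E16.5 control replicate 5 held 83.2% of the group's summed CPM. Their summed level was 8.18 to 18.8 CPM in E16.5 stabilized, 3.14 to 39.8 CPM in E16.5 control, 7.52 to 13.54 CPM in E13.5 stabilized and 2.39 to 10.5 CPM in E13.5 control libraries. Actc1 and Myog had 0 counts in E16.5 stabilized, Myog and Myod1 in E16.5 control, Myl1 and Tnnc2 in E13.5 stabilized, and Myh3, Myl1, Tnnt3 and Myog in E13.5 control samples. The E16.5 control library with the most striated muscle markers had the least Actg2 of its group, 32 CPM. It was also the lowest of that group for Acta2, Tagln, Tpm2, Cnn1, Myh11, Myl9 and Mylk, though not for Oxtr. The part of striated muscle in these levels was not tested. Endothelial and immune markers had 0 members past edgeR's adjusted threshold in either genotype comparison (6 and 5 tested). At an unadjusted p under 0.05, 1 endothelial marker was higher and 1 lower at E13.5, and 1 immune marker was lower at E16.5. Emcn and Tyrobp had 0 counts in E13.5 stabilized samples, and Tek and Tyrobp in E13.5 controls.

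For each of the 9 genes, the genes whose profile lay nearest over the 18 libraries were found, as the smallest root-mean-square distance of log2 CPM (prior count 2) centred on each gene's own mean, among 17164 candidates. These distances are descriptions over libraries that share the 4 groups. Tpm2 had the closest partner, Ier3 (0.36 log2 units), followed by Tuba1c (0.46). Myl9 lay nearest to Fdps (0.44) and Dynll1 (0.46), Tagln to Slc39a8 (0.54) and Tubb6 (0.64), and Mylk to Pycr1 (0.65) and Hs3st2 (0.79). Pycr1 averaged 120 CPM in E16.5 stabilized, 13.7 CPM in E16.5 control, 250 CPM in E13.5 stabilized and 9.47 CPM in E13.5 control samples, the same order of groups as Mylk. Actg2 lay nearest to Tgm2 (1.36) and Cxcl2 (1.42), where its own SD was 3.77. Tgm2 averaged 0.786 CPM in E16.5 stabilized and 45 CPM in E16.5 control samples, and 1.17 CPM in E13.5 stabilized and 0.133 CPM in E13.5 control samples. Oxtr lay nearest to Scnn1a (1.08) and 4833423E24Rik (1.12), Acta2 to Cdc42ep1 (1.21) and Adam23 (1.22), Myh11 to Tssk6 (0.93) and Tmeff2 (0.95), and Cnn1 to Gm4739 and Kcne3 (both 0.95).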

How the data were processed

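RNA was extracted with TRI Reagent and spin columns and made into libraries with the Ovation SoLo kit, per the labels' protocols. Salmon 0.99.0 and DESeq2 3.15, trimming with Trimmomatic 0.39, quality checks with MultiQC 1.9 and FastQC 0.11.8, and the build mm10 are named in the submitters' processing notes. The strand setting is not given in the sources used here. The authors deposited estimated counts per Ensembl gene, already whole numbers, and a normalized signal, which is the count divided by a factor that differs by gene and library. That deposited signal served only for 1 alternative. No value column was left unused, and no pair of libraries was identical. Of 24376 genes 24166 had a symbol.

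The estimated counts were tested in edgeR 4.0.16 (R 4.3.3) with TMM factors, filterByExpr (minimum count 10) and a robust quasi-likelihood model of 1 mean per group over all 18 libraries. The adjusted p-values measure the spread between pooled samples, whose litters are not given per library, so litter mates may stand in several libraries. Counting intervals (95%) and the floor of 3 counts cover counting error only. Positions and lengths came from GENCODE M21 (GRCm38). The method was tested on simulated data, with changes set only in genes above a minimum mean count. The outcome is not given here and does not describe genes with fewer counts.

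The 9 members and all lists were chosen with earlier results of these data known. Named besides the members and Ctnnb1 were Srf, Mrtfa, Mrtfb and Myocd, up to 3 genes per list and genotype comparison with the smallest adjusted p (1 for other cell types), list genes at 0 counts in a group, and the 2 nearest profiles per member. Some genes this rule names are not reported here. Alternatives were RLE factors, the deposited factors as offsets, no filter, DESeq2 1.42.0, only the libraries compared, a replicate block, each library left out, and, added after seeing the data, 3 libraries left out together.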

Additional observations from a re-analysis of the deposited data

Results flagged for a closer look

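In 5 of 35 sets of 1 gene in 1 group, a single library lay far from the rest of its group by Dixon's test. Chance alone does this in about 1 of 20 sets of continuous values, which does not apply to 3 of the 5, where the other libraries were at 0 and any count meets the test. Replicate 1 was that library each time, in 3 different groups, and replicates of different groups are linked here only by a number. Tpm2 was at 56.1 CPM in E16.5 stabilized replicate 1, with the next library at 25.2 CPM. Actg2 was at 0.995 CPM in the same library, with the next at 0.442 CPM. Cnn1 was at 0.855 CPM in E13.5 stabilized replicate 1 and at 0 in the other 3 libraries. In E13.5 control replicate 1, Actg2 was at 0.503 CPM and Oxtr at 0.0296 CPM, Oxtr from 1 count, and both genes were at 0 in the other 3 controls.

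For 3 genes the genotype effect differed between stages by the test of the difference itself (E16.5 minus E13.5, log2 scale). It was -3.71 for Tagln (edgeR adjusted p = 2.3e-05), -2.33 for Mylk (edgeR adjusted p = 0.00239) and -7.17 for Cnn1 (edgeR adjusted p = 0.0267), a size set by the fit because its E13.5 controls were at 0. The value for Cnn1 was lost without E13.5 stabilized replicate 1, while those of Tagln and Mylk passed under all 24 alternatives run.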

How the results depend on the processing

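For the 9 genes in 5 comparisons, 1111 alternative values were computed. Of these, 1079 kept the side of the threshold, 12 lost the call, 20 gained it and 0 reversed a called direction. For 33 of 45 results the call changed under none. Direction was not compared where neither value was called. Actg2 at E13.5, never called, stood at -2.68 with all libraries and 2.33 without E13.5 control replicate 1. At E13.5, 1712 genes in all were called with the offsets of the deposited table and 1651 with only the libraries compared, against 2569, and 1920 to 3035 with 1 library left out. DESeq2 called 5 members at E13.5, all of them higher, and 3 to 5 were called with 1 library left out. At E16.5, 1 to 2 members were lower with 1 library left out, and 2 with the 3 libraries left out together. The difference between stages was called, downward, for 2 to 5 members with 1 library left out. In stabilized epithelium 0 to 1 members fell with stage when 1 library was left out. With the 3 libraries left out together, 4 members rose at E13.5, Oxtr no longer passed there (5.20, edgeR adjusted p = 0.0532), nor did the difference for Cnn1 (edgeR adjusted p = 0.0537).

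Of 9 pairs of same-numbered stabilized and control libraries, 3 had correlated deviations over 0.1 (range -0.10 to 0.17). Differently numbered pairs were not compared and litters are not given per library, so whether samples are paired cannot be told. The replicate block joined same-numbered libraries within a stage for the genotype effects and their difference. With it, the difference for Cnn1 was lost (edgeR adjusted p = 0.109) and that for Tpm2 gained (-1.35, edgeR adjusted p = 0.0272). For the stage effects the block joined the same number across stages, which are different embryos, so it stands for no known unit. With that block, 0 members fell with stage in stabilized epithelium (Mylk -0.99, edgeR adjusted p = 0.0746). Depth limits Cnn1, Myh11 and the E13.5 values of Actg2 and Oxtr, which rest on few counts.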
